A study of Mus musculus with 10 samples.

Results

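Small leucine-rich proteoglycans are secreted proteins of the extracellular matrix, and the transcripts of 10 of them were followed in the posterior wall of the mouse eye: Dcn, Bgn, Fmod, Lum, Kera, Prelp, Ogn, Aspn, Omd and Optc. They were taken by gene name from a table of 26360 genes, and all 10 were present. The data were 10 RNA-seq libraries from 5 wild-type C57BL/6J mice at postnatal day 34, with left and right eyes sequenced separately (n = 5 per side). Each mouse had worn a -20 D lens, which induces myopia, over 1 eye from day 24 for 10 days, and the other eye served as its untreated control. The labels give the side of each eye and not which eye wore the lens, so left and right are the only groups, both hold eyes of lens-wearing mice, and the sign of a difference has no treatment meaning. Animal numbers are not spelled out in the labels, and the numbers in the library titles (61, 64, 65, 66 and 68) are used here as animal numbers.

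Each of these proteins carries a curved stack of leucine-rich repeats that binds collagen, and several carry chains of chondroitin, dermatan or keratan sulfate. On the surface of a collagen fibril they limit its thickness and set its distance to the next fibril. In the eye they are known above all from cornea and sclera, where regular fibrils keep the cornea clear and interwoven, less regular ones make the sclera tough, and the sclera of the myopic eye is known to be thinner and weaker than normal. Members are grouped by their gene and protein structure into class I (Dcn, Bgn, Aspn), class II (Fmod, Lum, Kera, Prelp, Omd) and class III (Ogn, Optc).

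The deposited values are normalized read counts (CPM), scaled to the library total. The step between low values implied 66.9 to 94.3 M reads per library (median 79.3 M), so that 3 reads corresponded to at most 0.0448 CPM and every member was far above this floor in every library. Markers of the labelled tissue were present, with Rpe65 of the pigment epithelium at 649 to 937 CPM, Col1a1 of the sclera at 1549.6 to 2739 CPM and Kdr of choroidal vessels at 87.9 to 121 CPM, although Best1, another marker of the pigment epithelium, reached no more than 0.762 CPM. Transcripts of other tissues were present too: the 10 rod markers summed to 169 to 2124 CPM, 11 lens markers to 104 to 898 CPM, 14 skeletal muscle markers to 2068 to 9643 CPM and 12 markers of corneal and conjunctival epithelium to 103 to 759.5 CPM. In such bulk tissue, fewer cells of a type and less RNA per cell cannot be told apart. Xist was high in animals 61 and 65 (729 to 868 CPM, against at most 5.86 CPM elsewhere) and the Y-linked Ddx3y in animals 64, 66 and 68 (47.6 to 55.4 CPM, against at most 0.0718 CPM), and sex, which the labels do not give, cannot be told apart from animal in the comparison of animals.

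The genes lie in 3 clusters and 1 single locus (GRCm38, 1-based). Dcn (chromosome 10, 97479609 to 97518143), Lum (97565128 to 97572703) and Kera (97606879 to 97613692) follow each other on the plus strand, with Epyc, another family member, 30.4 kb after Kera. Aspn (chromosome 13, 49544443 to 49567565), Omd (49582462 to 49592822) and Ogn (49608046 to 49624501) are spaced by 14.9 and 15.2 kb on the plus strand, behind Ecm2, and all 3 lie within Cenpp, a centromere protein gene of the opposite strand that reached at most 0.379 CPM. On chromosome 1, Optc (133897199 to 133907999) and Prelp (133910304 to 133921414) are minus-strand neighbours 2.30 kb apart, and Fmod (134037254 to 134048277, plus strand) stands 116 kb beyond Prelp. Bgn (73483602 to 73495933, plus strand) is on the X chromosome. The number of exons in the principal transcript followed the classes in part: 8 in Dcn, Bgn and Aspn, 7 in Ogn and Optc, 3 in Fmod, Lum, Kera and Prelp, and 4 in Omd. The coding sequences of Dcn and Bgn were the closest pair of the 45 (67.4% of aligned bases identical), and those of Ogn and Aspn, of different classes in the same cluster, were the next (65.8%). No member overlapped another.

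Upstream sequences are shown for the closest neighbours, Optc and Prelp, whose levels had very different spreads, and for the evenly spaced run of Aspn, Omd and Ogn. These are the 250 bases before the RefSeq start site (GRCm38.p6, RefSeq), 5′ to 3′ on the strand of the gene, with capitals marking matches on either strand to 1 of 6 motifs searched: the TATA box TATAAA, the CCAAT box CCAAT, the GC box GGGCGG, the AP-1 site TGACTCA, the E-box CAGGTG and the palindromic SMAD element GTCTAGAC. The pair is Optc (chr1:133908000-133908249, minus strand) and Prelp (chr1:133921402-133921651, minus strand). The run is Aspn (chr13:49544193-49544442), Omd (chr13:49582212-49582461) and Ogn (chr13:49607765-49608014), all on the plus strand.
Optc: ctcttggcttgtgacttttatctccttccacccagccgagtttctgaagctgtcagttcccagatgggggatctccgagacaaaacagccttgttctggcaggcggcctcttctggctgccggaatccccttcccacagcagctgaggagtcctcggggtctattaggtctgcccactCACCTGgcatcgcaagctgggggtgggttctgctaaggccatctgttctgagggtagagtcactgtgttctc
Prelp: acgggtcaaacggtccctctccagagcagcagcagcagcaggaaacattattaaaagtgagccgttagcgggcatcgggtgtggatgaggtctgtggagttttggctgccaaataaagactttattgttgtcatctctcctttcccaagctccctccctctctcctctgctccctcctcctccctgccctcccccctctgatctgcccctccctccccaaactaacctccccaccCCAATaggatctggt
Aspn: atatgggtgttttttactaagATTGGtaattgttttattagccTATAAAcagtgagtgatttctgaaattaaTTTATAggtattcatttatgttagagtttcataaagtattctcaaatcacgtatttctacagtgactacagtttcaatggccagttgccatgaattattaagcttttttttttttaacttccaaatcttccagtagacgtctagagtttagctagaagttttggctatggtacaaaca
Omd: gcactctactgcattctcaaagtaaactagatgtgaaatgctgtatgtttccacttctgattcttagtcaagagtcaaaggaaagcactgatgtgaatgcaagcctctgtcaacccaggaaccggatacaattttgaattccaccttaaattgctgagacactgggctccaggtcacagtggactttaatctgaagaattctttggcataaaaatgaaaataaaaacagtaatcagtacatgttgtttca
Ogn: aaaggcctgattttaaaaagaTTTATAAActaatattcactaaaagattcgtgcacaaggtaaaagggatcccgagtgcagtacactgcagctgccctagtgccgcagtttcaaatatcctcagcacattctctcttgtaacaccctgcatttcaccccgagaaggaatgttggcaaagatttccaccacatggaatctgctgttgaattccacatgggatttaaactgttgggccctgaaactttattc
Optc held 1 E-box match, starting 72 bases before its start site, a motif found in 17.2% of the 32851 upstream windows of this length. Prelp held 1 CCAAT match at 15 bases, a motif found in 33.8% of windows. Aspn and Ogn held TATAAA, found in 12.4% of windows, but at least 178 bases before the start, with matches on both strands that overlap in Ogn, and Aspn held 1 CCAAT match on the opposite strand. Omd held none of the 6. Of the 8 members with an entry, Bgn held 3 GC box matches (32.7% of windows), Kera 3 CCAAT matches and Fmod none. The RefSeq start of Kera lies 326 bases inside the deposited gene, and Dcn and Lum had no entry. These matches are letters in a window and not sites of binding.

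Dcn encodes decorin, the class I proteoglycan that binds type I collagen and carries a single dermatan or chondroitin sulfate chain. Per kilobase it had the highest level of the family in every library. In left eyes it stood at 2042, 1909, 1556, 1822 and 1605 CPM in animals 61, 64, 65, 66 and 68, and in right eyes at 2178, 1743, 1902, 1893 and 1669.7 CPM. The ranges of the sides overlapped, and both eyes of animal 61 were above all other libraries. Between fellow eyes it differed by a log2 difference (right minus left, here and below on the scale of log2(CPM + 0.230)) of 0.07 ± 0.08 (SE, n = 5 pairs; 95% interval -0.12 to 0.26).

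Bgn encodes biglycan, its X-linked relative with a pair of chains, which also signals through Toll-like receptors once freed from the matrix. It was at 354, 313, 284, 329.9 and 346 CPM in left and at 377, 298, 360.2, 409.6 and 331 CPM in right eyes, in the same order of animals. The right eyes of animals 65 and 66 exceeded their fellow eyes by 1.27-fold and 1.24-fold, while animals 64 and 68 differed the other way by 1.05-fold each. The log2 difference was 0.12 ± 0.08 (SE, n = 5 pairs; 95% interval -0.06 to 0.31). Aspn encodes asporin, which binds collagen and carries a run of aspartate in place of a sugar chain. Its left eyes were at 67.3, 57.8, 44.0, 47.6 and 62.1 CPM and its right eyes at 63.9, 60.3, 52.9, 62.2 and 54.4 CPM. The right eyes lay within the range of the left eyes, and the log2 difference was 0.09 ± 0.09 (SE, n = 5 pairs; 95% interval -0.12 to 0.29).

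In class II, Fmod encodes fibromodulin, a keratan sulfate proteoglycan that binds collagen at the site also used by lumican. It stood at 450.1, 407, 349, 371 and 367 CPM in left eyes and at 455, 369, 434, 411 and 391 CPM in right eyes, with a log2 difference of 0.08 ± 0.07 (SE, n = 5 pairs; 95% interval -0.08 to 0.25). Both eyes of animal 61 were again the highest libraries. Lum encodes lumican, a keratan sulfate proteoglycan of corneal and scleral fibrils whose loss together with Fmod is known to give long, thin-walled mouse eyes. Its levels had the second smallest SD of log2 levels after Ogn (0.12) and the smallest ratio of highest to lowest library (1.27), at 154, 148, 153, 167 and 175 CPM in left eyes and 149, 145, 173, 138 and 165 CPM in right eyes. Its log2 difference was -0.06 ± 0.07 (SE, n = 5 pairs; 95% interval -0.21 to 0.10). Here animal 68, the lowest for Dcn, was the highest on average (170.0 CPM over its eyes) and animal 64 the lowest (147 CPM).

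Prelp encodes a collagen-binding protein with a basic, heparin-binding end that anchors basement membranes to the matrix beneath. In left eyes it was at 106, 88.7, 82.3, 86.7 and 68.4 CPM and in right eyes at 99.5, 84.3, 95.7, 85.2 and 68.3 CPM. The fellow eyes of animal 68 were nearly equal and the lowest of all libraries, those of animal 61 were the highest, and the log2 difference between sides was 0.00 ± 0.06 (SE, n = 5 pairs; 95% interval -0.13 to 0.14). Omd encodes osteomodulin, also known from bone and tooth, and stood at 33.8, 28.4, 20.3, 25.5 and 31.3 CPM in left eyes and 36.9, 27.6, 25.9, 23.4 and 28.9 CPM in right eyes. Its log2 difference was 0.04 ± 0.08 (SE, n = 5 pairs; 95% interval -0.15 to 0.22). As in Prelp, both eyes of animal 61 exceeded every other library.

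Ogn encodes osteoglycin, also called mimecan, a small class III protein of cornea, sclera and bone. It had the smallest SD of log2 levels in the family (0.10), at 211, 219, 178, 198 and 188 CPM in left eyes and 228, 203, 193, 206 and 200.4 CPM in right eyes. The highest library held 1.28 times the lowest, and the log2 difference was 0.05 ± 0.05 (SE, n = 5 pairs; 95% interval -0.07 to 0.17).

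Kera encodes keratocan, the keratan sulfate proteoglycan typical of corneal keratocytes, which is also made in sclera and tendon. It had the lowest mean level per kilobase and was the second most variable member, with left eyes at 12.5, 19.98, 18.3, 26.2 and 14.2 CPM and right eyes at 14.02, 10.6, 10.9, 19.99 and 17.0 CPM. Left eyes were 1.89, 1.67 and 1.31 times as high as right eyes in animals 64, 65 and 66, and in animals 61 and 68 the right eyes were higher by 1.13 and 1.199 times. The log2 difference was -0.32 ± 0.18 (SE, n = 5 pairs; 95% interval -0.74 to 0.10).

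Optc encodes opticin, a class III protein of the vitreous and the ciliary epithelium that is associated with the collagen fibrils of the vitreous gel. It varied most of all members. Left eyes held 34.7, 29.2, 100.1, 52.1 and 24.9 CPM and right eyes 23.1, 54.1, 23.4, 8.97 and 23.4 CPM, so that the highest library stood 11.2 times above the lowest. The left eye was higher by 4.28 times in animal 65 and 5.81 times in animal 66, the right eye by 1.85 times in animal 64, and the eyes of animal 68 were nearly equal. The log2 difference was -0.88 ± 0.47 (SE, n = 5 pairs; 95% interval -1.98 to 0.22).

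**Figure D1:**
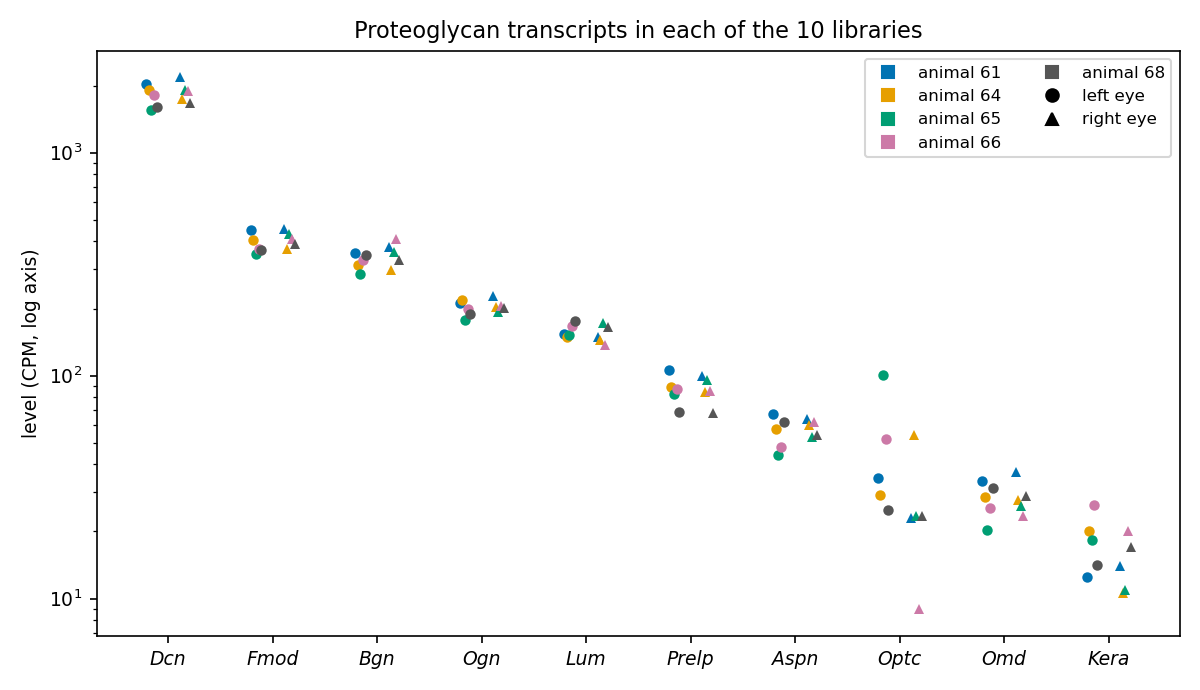
Level of each proteoglycan transcript (CPM, log axis) in each of the 10 libraries, with colours for the 5 animals, circles for left and triangles for right eyes. The points of Dcn lie between 1556 and 2178 CPM, and those of Optc spread from 8.97 to 100.1 CPM, the widest spread of the 10 members.

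The comparison of right with left eyes asks what the labels allow of the lens question, since 1 eye of each animal wore the lens. None of the 10 members reached the adjusted threshold of 0.05 in the paired limma fit (adjusted p = 0.9998 for each), against a background of 0% of 15414 genes tested. At an unadjusted p under 0.05, no member was counted, against 2.79% of genes tested (430 genes). No member was higher in the right eye in 5 of 5 animals (1.77% of genes tested were) or lower in 5 of 5 (2.67%). In none did all right eyes lie above all left eyes (0.0779% of genes tested) or below them (0.136%). The estimate was above 0 for 7 members and the median member difference was 0.05 on the log2 scale, beside -0.01 over all genes tested. With libraries rescaled to the total of their listed genes, or after quantile normalization, it was above 0 for 6, Prelp turning negative in the first and Dcn in the second case. It was above 0 for 5 with an epithelial covariate (below), for 5 without animal 65 and for 8 without animal 66.

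The intervals say how large a mean difference between sides the data leave room for. For the 8 members other than Kera and Optc the 95% interval stayed within 1.10-fold (Prelp) to 1.24-fold (Bgn) of no difference, for Kera within 1.67-fold and for Optc within 3.94-fold. If the lens was on different sides in different animals, its effect would partly cancel in this mean, so the size of the difference within each animal, whatever its sign, is given as well. Its median over the 5 animals was 0.07 (Prelp) to 0.19 (Aspn) on the log2 scale in these 8 members, beside a median of 0.14 over all genes tested. Kera reached 0.38 and Optc 0.88, which 90.9% and 97.6% of genes tested stayed below. The largest difference within an animal outside Kera and Optc was 0.38 (1.30-fold), in Aspn of animal 66.

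**Figure D2:**
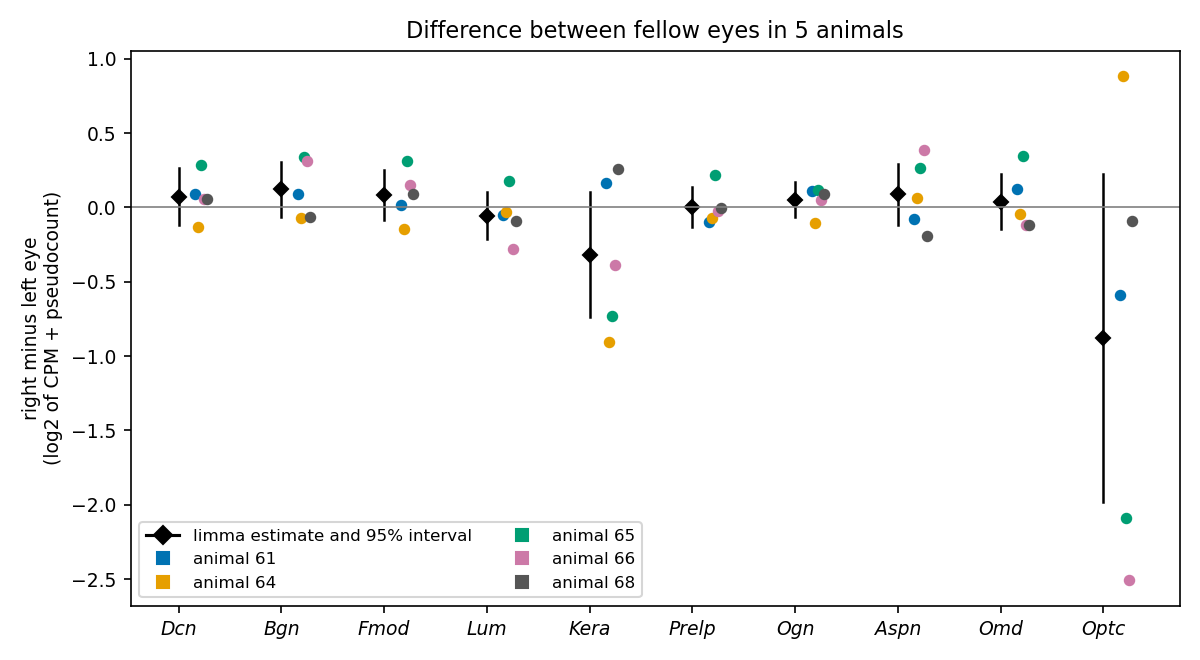
Right minus left difference of each proteoglycan on the scale of log2(CPM + pseudocount), with black diamonds and lines for the limma estimate and its 95% interval and coloured points for the 5 animals. All 10 intervals include 0, and the points of Optc run from -2.51 to 0.88.

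The second comparison asked whether animals differed by more than their fellow eyes did. The F-test over the 5 animals in the same limma fit called 13 genes (0.0843% of genes tested), 7 of them on the X and Y chromosomes, and none of the 10 members. A lens effect would count as error in this test if the lens was worn on different sides in different animals. At an unadjusted p under 0.05, Prelp and Omd were counted, against 7.22% of genes tested. The mean level of Prelp spanned 0.59 on the log2 scale over the animals, from 68.3 CPM in animal 68 to 103 CPM in animal 61 (limma unadjusted p = 0.00317, adjusted p = 0.387). Without animal 68 the span was 0.26 and without animal 61 it was 0.38. Omd spanned 0.62, from 23.1 CPM in animal 65 to 35.4 CPM in animal 61 (limma unadjusted p = 0.00913, adjusted p = 0.510), and 0.39 without animal 61. Optc had the widest span of animal means, 1.15, with fellow eyes that differed by up to 5.81-fold (limma adjusted p = 0.847), and the spans of Dcn, Bgn, Fmod, Lum and Ogn lay between 0.21 (Lum) and 0.37 (Dcn).

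Animal 61 had the highest mean level in 6 members, namely Dcn, Fmod, Prelp, Ogn, Aspn and Omd, Bgn was highest in animal 66, and Lum was highest in animal 68. With the 8 members other than Kera and Optc, 6 of the 10 libraries had their own fellow eye as the nearest library (root mean square log2 difference over the members), those of animals 61, 64 and 68. With all 10 members it was 4 of 10, those of animals 61 and 68. The libraries of animals 65 and 66 were closer to a library of another animal in both cases. Animal 65 had the largest gap between fellow eyes in 6 members (Dcn, Bgn, Fmod, Prelp, Ogn and Omd), each with the left eye lower, and its left eye was the lowest library for Dcn, Bgn, Fmod, Ogn, Aspn and Omd. That library also had the smallest sum of listed genes (426877 CPM, against a median of 460382 CPM). The 10 members summed to 2785 CPM in it, their lowest sum, and to 2883 CPM in the left eye of animal 68. As a share of listed genes these were 0.653% and 0.623%, so its place as the lowest depends on the scaling. The gaps and low values above are on the deposited scale. The right eye of animal 65 had a listed sum of 464480 CPM, so rescaling to listed genes narrows the gaps of this animal. The smaller ones, such as that of Ogn (0.115 on the log2 scale), may not keep their direction or rank. Gaps within animals were not recomputed on that scale, and the part of scaling in them was not tested.

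**Figure D3:**
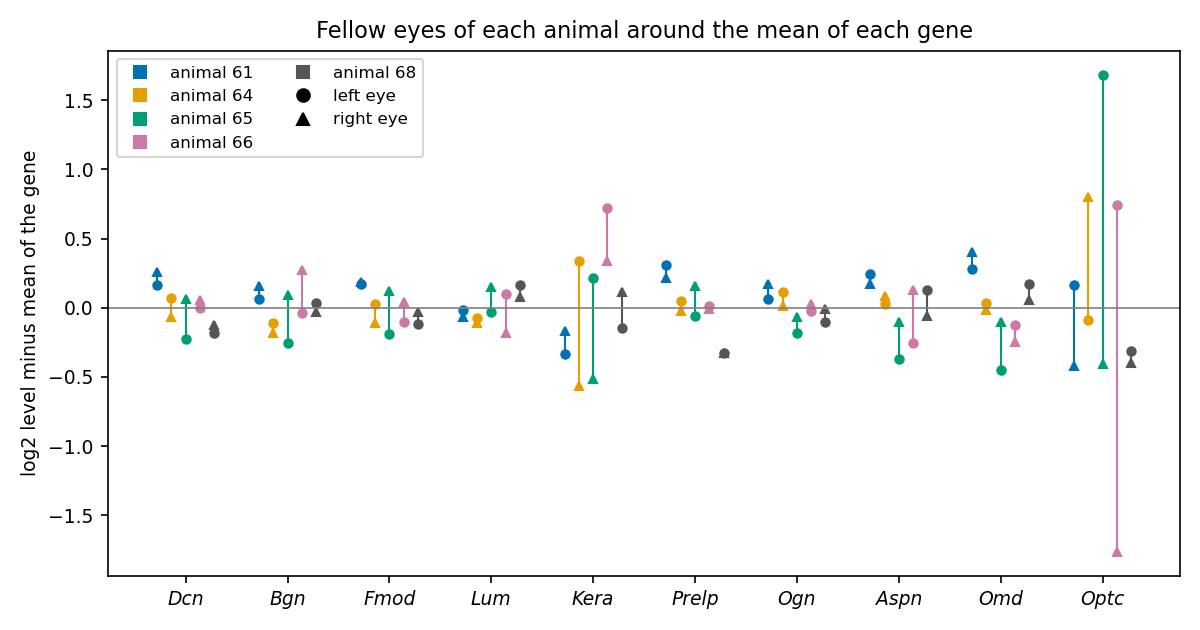
Log2 level of each proteoglycan around its own mean, with a line joining the left eye (circle) and right eye (triangle) of each of the 5 animals. In Prelp and Omd animal 61 lies above the other 4, and in Prelp animal 68 lies below them, whereas in Optc and Kera the lines of several animals are long and cross the same range.

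Levels of the members were compared with each other per kilobase, with all exons of a gene merged. Dcn had 314 ± 33.3 CPM per kilobase (SD, n = 10 libraries), followed by Fmod (121 ± 11.2), Ogn (78.9 ± 5.68), Lum (64.01 ± 5.17) and Bgn (55.8 ± 6.14), all in CPM per kilobase. Dcn was above Fmod and Fmod above Ogn in 10 of 10 libraries, with ranges that did not touch. Ogn was above Lum in 10 of 10 libraries with overlapping ranges, and Lum above Bgn in 8 of 10, so the order of that last pair was within the spread between libraries. A clear step separated Bgn from the lower group of Aspn (24.3 ± 3.16), Prelp (23.9 ± 3.38), Optc (14.5 ± 10.1), Omd (12.5 ± 2.18) and Kera (7.18 ± 2.14 CPM per kilobase). Aspn and Prelp changed places in 5 of 10 libraries, and Optc ranked anywhere from 6 to 10. On this scale Dcn made up 43.7% ± 1.61 (SD, n = 10 libraries) of the summed level of the family and Fmod 16.9% ± 0.629.

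The length used mattered for the class I pair. Dcn and Bgn have 5838 and 6099 bases of merged exons but principal transcripts of 1758 and 2419 bases, and per kilobase of principal transcript Dcn made up 67.5% of the family, Bgn 9.13% and Fmod 8.32%. By that length Bgn moved from rank 5 to rank 2. Which transcripts the reads came from cannot be read from values per gene, so the rank of Bgn against Fmod, Ogn and Lum is uncertain, while Dcn ranked first by both lengths in all 10 libraries.

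**Figure D4:**
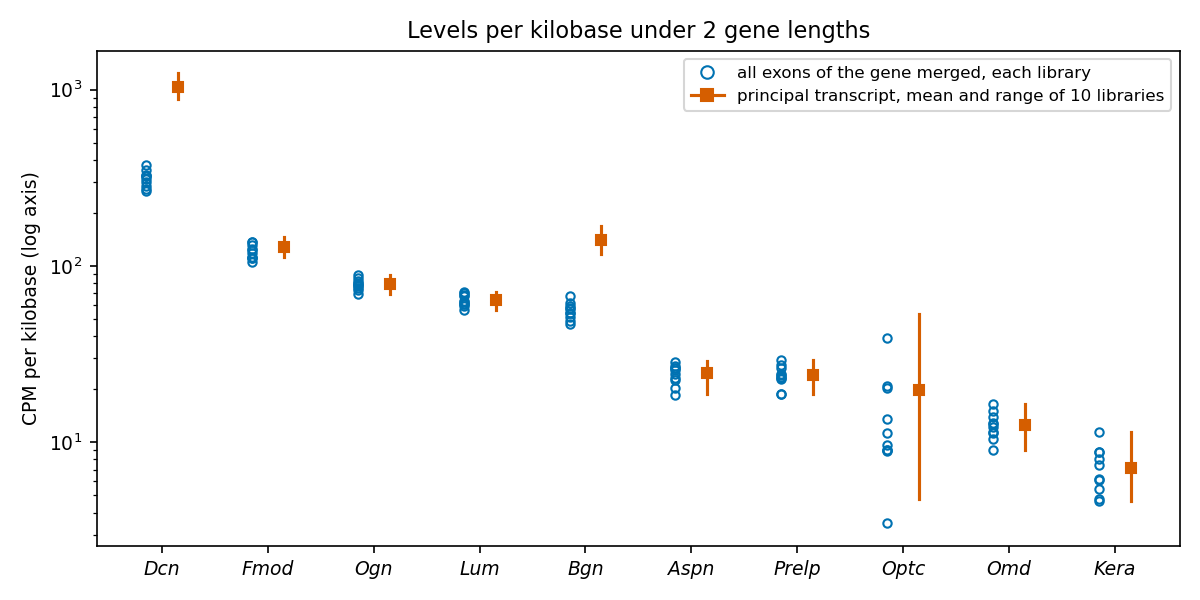
Level per kilobase (CPM per kilobase, log axis) of each proteoglycan, with open circles for the 10 libraries when all exons are merged and squares with lines for the mean and range when the principal transcript is used. Dcn and Bgn move upward with the shorter length, from 314 to 1042 and from 55.8 to 141 CPM per kilobase on average, Optc moves from 14.5 to 19.8, Fmod from 121 to 128 and Aspn from 24.3 to 24.6, and the other 5 keep their value.

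Within libraries, some pairs kept a nearly fixed proportion. The ratio of Dcn to Fmod per kilobase ran from 2.42 to 2.78, a 1.15-fold range over all 10 libraries, and these were the closest pair of members in pattern (root mean square difference of centred log2 levels 0.06 over 10 libraries). Dcn and Ogn (0.08) and Fmod and Ogn (0.09) came next, although the 3 genes are of 3 classes and on 3 chromosomes. The ratio of Dcn to Bgn ran over a 1.32-fold range, that of Lum to Fmod over 1.46-fold and that of Lum to its neighbour Kera over 2.47-fold. In the chromosome 13 cluster, whose upstream sequences are shown above, Ogn to Aspn ran over 1.37-fold, Ogn to Omd over 1.46-fold and Aspn to Omd over 1.54-fold. Prelp to Optc, the neighbours 2.30 kb apart, ran over 11.6-fold. These are descriptions over libraries that share animals. Closeness to Dcn and Fmod was not particular to the family, since Mbtps2 (0.04 from Dcn) and Car8 (0.04 from Fmod) were nearer than any member.

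Among all 9607 other protein-coding genes that averaged 5 CPM or more, the nearest in pattern to Dcn were Mbtps2 (root mean square difference of centred log2 levels 0.04 over 10 libraries), Kirrel (0.05) and Gabarapl1 (0.05). Those of Fmod were Car8, Gpr143 and Vps26b (0.04 each), and those of Bgn were Met, which encodes a receptor tyrosine kinase that decorin is known to bind (0.03), Olfml3 (0.05) and Crim1 (0.05). Dcn, Fmod and Bgn varied little themselves, with a root mean square of 0.13 to 0.15 about their own means, so these distances separate genes only weakly. For Omd, which varied by 0.24, they were Lin52 (0.10), Ccng2 (0.11) and Cyb561 (0.12).

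Optc stood near a small set of genes over the same 10 libraries. The nearest were Crhbp, which encodes a binding protein for corticotropin-releasing hormone (0.15), Col9a1, a chain of type IX collagen (0.22), and Slc16a12, a transporter of the monocarboxylate family (0.27), against a root mean square of 0.88 of Optc about its own mean. Crhbp held 13.8, 14.8, 34.0, 22.1 and 11.1 CPM in left eyes of animals 61, 64, 65, 66 and 68 and 9.51, 20.4, 10.7, 3.56 and 10.5 CPM in right eyes. Col9a1 held 18.6, 14.1, 55.8, 23.1 and 11.7 CPM in left eyes and 9.40, 29.8, 13.5, 3.14 and 14.2 CPM in right eyes. All 4 genes were highest in the left eye of animal 65 and lowest in the right eye of animal 66. This follows largely from the choice of the 3 by their nearness to Optc over the same libraries. Type IX collagen is known from cartilage and from the vitreous, where opticin is found as well.

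Marker lists were read for the same directions between fellow eyes as Optc. Of 7 tested markers of the ciliary body and iris epithelium, Tgfb2 differed in the direction of Optc between fellow eyes in 5 of 5 animals and 3 others in 4 of 5, while Opcml did so in 0 of 5 and Bmp4 in 1 of 5. The list summed to 92.1 to 127 CPM in left eyes and 84.8 to 115 CPM in right eyes. Of 8 tested cartilage markers, Col9a2 did so in 5 of 5 animals and Col2a1, Matn3 and Col9a1 in 4 of 5. Sox9 did so in 3, Col9a3 and Cnmd in 2 and Acan in 1 of 5. Col9a1 and Col9a2 were also ranks 2 and 5 among the genes nearest to Optc, so their directions are no separate observation. The list of 9 summed to 133 to 189.5 CPM in left eyes and 129 to 159 CPM in right eyes. Of 10 rod markers, 9 followed Optc in 4 of 5 and none in 5 of 5. In the pathway lists, the keratan sulfate sulfotransferase genes Chst1 and Chst2 followed Optc in 5 of 5. Of the same list, B4galt4 followed it in 3 of 5 and B3gnt2 and B4galt1 in 1 of 5. Adamts5, Tll1 and Tgfbr1 of other pathway lists followed it in 5 of 5, and Chad, Chst12, Pcolce and Col12a1 in 0 of 5. Tgfb2, already given as a ciliary marker, is also in these lists and is no separate observation. Of 10 markers of fibroblasts and sclera, Fbln1 followed Optc in 5 of 5 and none in exactly 4 of 5. The pigment epithelium markers Rlbp1, Rdh5 and Stra6 followed it in 0 of 5. Over all other genes tested, 3.78% followed the direction of Optc in 5 of 5 animals and 15.8% in exactly 4 of 5. The part of tissue composition in the Optc differences was not tested.

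**Figure D5:**
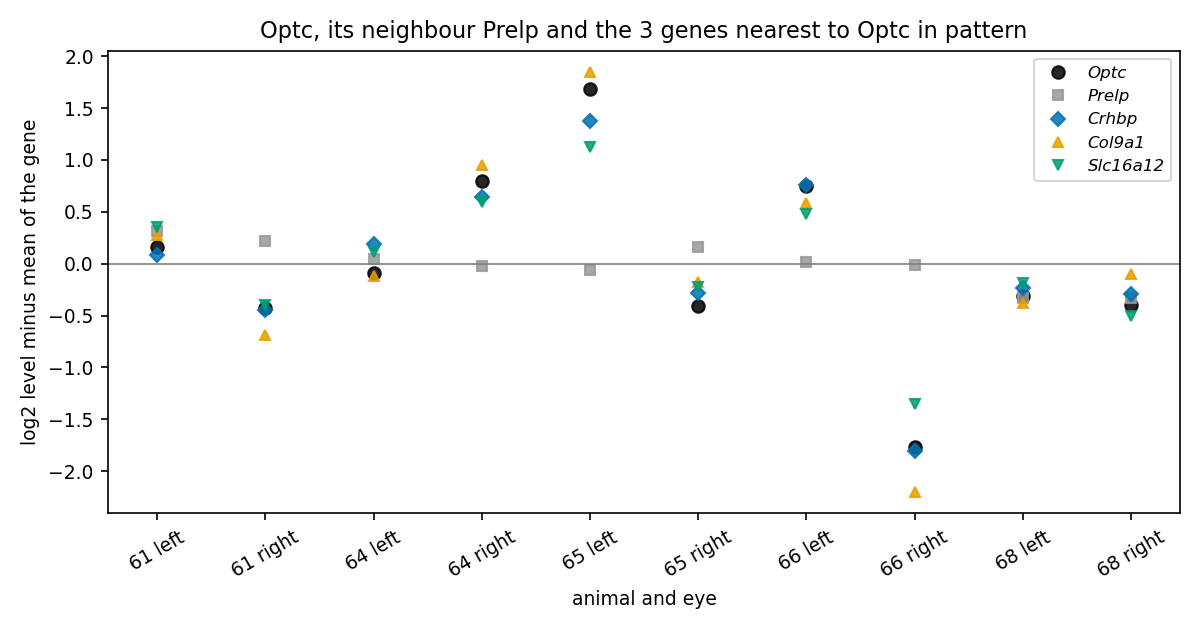
Log2 level around the mean of each gene in the 10 libraries for Optc, its genomic neighbour Prelp and the 3 genes nearest to Optc in pattern, Crhbp, Col9a1 and Slc16a12. These 3 were chosen by their nearness to Optc over the same libraries. They rise to their highest point with Optc in the left eye of animal 65. In the right eye of animal 66 they fall to their lowest with it, while Prelp stays near its mean in both.

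Kera differed between fellow eyes in the same direction as markers of the surface epithelium of the eye in most animals. Among 12 markers of corneal and conjunctival epithelium, Krt12, the keratin specific to corneal epithelium, and Dsg1a, a desmosomal cadherin, differed in the direction of Kera between fellow eyes in 5 of 5 animals and the other 10 in 4 of 5. Over all other genes tested 2.06% did so in 5 of 5 and 13.6% in exactly 4 of 5. The 12 are markers of the same surface epithelia, so their directions are not separate observations. Krt12 held 4.76, 137, 115, 173 and 1.996 CPM in left eyes and 59.1, 23.6, 0.934, 0.720 and 15.7 CPM in right eyes. In animal 66 Krt12 was 0.720 CPM in the right eye, where Kera was 19.99 CPM. Of 6 tested keratocyte markers, Aldh3a1 and Tkt, both enzymes abundant in cornea, followed Kera in 5 of 5 animals and Aldh1a3 in 4, while Ptgds did so in 3, Chst1 in 2 and Cd34 in 1. The list of 7 summed to 1718 to 2109.7 CPM in left eyes and 1611 to 2218 CPM in right eyes. The epithelial list summed to 251 to 759.5 CPM in left eyes and 103 to 616 CPM in right eyes. Between sides all 12 estimates of this list were below 0 (median log2 difference -1.01), so as a covariate it also takes up side differences. None of its markers followed Optc in 4 or 5 animals. With the epithelial list as a covariate, the log2 difference of Kera was -0.14, against -0.32 without it, and that of Optc was -0.33, against -0.88. Other members shrank too, Bgn from 0.12 to 0.05 and Fmod from 0.08 to 0.02, and Prelp (-0.04) and Aspn (-0.03) changed sign. The part of tissue composition in the Kera differences was not tested, and the covariate fit cannot decide it because the covariate overlaps with side. None of the 6 tendon markers or 13 skeletal muscle markers followed Kera in 4 or 5 animals. Nor did any of 11 lens markers or 7 tested markers of the ciliary body and iris epithelium. By pattern the genes nearest to Kera were Hbegf (0.24), Itgb4 (0.27) and Esr1 (0.27), against a root mean square of 0.39 of Kera itself, so none was close.

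The other genes of the system were read from lists ordered by role, and none of the genes tested passed the adjusted threshold of 0.05 between sides (limma) in either direction, as for all genes. The 2 genes named from each list are those with the highest CPM, which is no order of levels per length. Of 8 other small leucine-rich proteoglycans, 6 averaged 1 CPM or more (0 of 6 passed, median log2 difference 0.05). Ecm2 (45.1 ± 3.86 CPM on the left and 48.2 ± 3.41 CPM on the right, SD over 5 animals), the neighbour of Aspn, and Chad, which encodes the cartilage protein chondroadherin (27.1 ± 5.83 and 33.2 ± 6.12 CPM), are named from it. Epyc, the neighbour of Kera, stood at 3.03 to 5.46 CPM.

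Among enzymes that build chondroitin and dermatan sulfate chains, 20 of 22 averaged 1 CPM or more (0 of 20 passed, median -0.00), among them Fam20b, the xylose kinase of the linker region, and Chsy3, a chain polymerase. The keratan sulfate list had 5 of 8 at that level (0 of 5 passed, median 0.01), among them B4galt1 and the sulfotransferase gene Chst2. Among 12 collagen partners (0 of 12 passed, median 0.00), Col1a2 had a log2 difference of 0.04 ± 0.11 and Col1a1 of 0.00 ± 0.11 (SE, n = 5 pairs). Of proteases and their enhancers 11 of 14 were at that level (0 of 11 passed, median -0.06), among them Pcolce, the enhancer of procollagen cleavage, and Mmp2. Of 14 ligands and receptors (0 of 14 passed, median -0.01), Lrp1, an endocytic receptor for decorin, had a log2 difference of 0.02 ± 0.09 and Met of 0.12 ± 0.08 (SE, n = 5 pairs). The median over all genes tested was -0.01. None of the genes of these 6 lists was called between animals, against 0.0843% of genes tested.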

How the data were processed

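RNA sequencing values of 10 libraries (5 mice, both eyes) were used. Per the labels, total RNA (1 μg) went through ribosomal RNA depletion and a stranded kit, and the tissue is pigment epithelium, choroid and sclera, although the extraction text speaks of retinae. STAR, Partek and the build GRCm38 (mm10) are named in the submitters' processing notes. Versions, annotation and strand setting: not given in the sources used here. In the deposited file the values behave as CPM plus 0.0001, an amount removed before use. With a tolerance of 0.05, 88.9% to 89.8% of low values (0.5 to 20 read steps) were whole, so depth is implied and reads were not recovered. Floors cover counting error. Listed genes made up 42.7% to 47.1% of the totals.

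The 15414 genes averaging 1 CPM or more entered limma 3.58.1 (R 4.3.3, with an intensity trend) as log2(CPM + 0.230). Terms were animal and side, leaving 4 residual degrees of freedom, and p-values were adjusted by Benjamini-Hochberg over all genes tested. Animal was a block since fellow eyes come from one mouse by the protocol and share a number in the titles. Sex-linked transcripts matched within all 5 pairs. Deviations of fellow eyes correlated above 0.1 in 2 of 5 and below 0 in animals 66 (-0.189) and 68 (-0.055). Among libraries of the opposite side, the fellow eye was the best match for 1 of 5 left and 1 of 5 right eyes. None of the 45 library pairs was alike within sampling noise (chi-square over its degrees of freedom 11.5 or more). Gene models are GENCODE M21, with 99.3% of starts equal in 25737 matched genes; printed ends are the deposited stop minus 1. The fit was run on simulated counts with the same dispersion for every gene, a simpler setting than these data. It is no check for genes as variable as Optc. Members and lists were chosen with earlier results of these data known. Named genes are the members, the 2 highest of each list and the 3 nearest in pattern to the 3 highest and the 3 most variable members. Krt12, Dsg1a, Aldh3a1, Aldh1a3, Cd34, Chst1, Opcml, Acan, Rlbp1, Rdh5, Stra6, Col9a2, Epyc, Rpe65, Col1a1, Kdr and Best1 were named after their values were seen, and the principal transcript length was added then. B3gnt2, B4galt4, Adamts5, Tll1, Tgfbr1, Chst12, Col12a1, Col2a1, Matn3, Sox9, Cnmd and Fbln1 were also named after their values were seen. Alternatives covered the block, pseudocount, filter, scaling, weights, moderation, voom on implied reads, 2 tissue covariates and each animal or library left out.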

Additional observations from a re-analysis of the deposited data

How the results depend on the processing

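No gene was called between sides in any of 29 alternatives, and no member between animals in any of 28 (limma adjusted p of members at least 0.190, for Prelp). Between sides, leaving out a single library gave the same estimates as leaving out its animal, so these alternatives repeat each other. Genes at an unadjusted p under 0.05 between sides numbered from 142 (epithelial covariate) to 978 (skeletal muscle covariate), with 861 without a filter and 409 by voom. Without the replicate block 0 genes were called (434 at an unadjusted p under 0.05), so the pairing changed no call. Genes called between animals numbered 13, but 20 with array weights, 7 without the intensity trend and 5 to 11 with an animal or library left out (5 without animal 61). Some differences between sides changed sign: Dcn was -0.047 after quantile normalization, Aspn -0.028 and Prelp -0.043 with the epithelial covariate, and Prelp -0.0071 with rescaling to listed genes and -0.029 with array weights. With an animal or library left out, Lum ran from -0.114 to 0.0012 (without animal 66), Prelp from -0.049 (without animal 65) to 0.029 and Omd from -0.039 (without animal 65) to 0.079. Optc reached -1.32 without animal 64 and -0.47 without animal 66, while Kera reached -0.46 without animal 68 and -0.17 without animal 64. The cause was not tested. Spans over the animals fell by over 1.5 times for several members. Kera fell from 0.78 to 0.23 without animal 66. Without animal 61, Fmod fell from 0.26 to 0.04, Dcn from 0.37 to 0.18 and Aspn from 0.44 to 0.29 (0.27 without animal 65). Omd fell from 0.62 to 0.39 without animal 61. Prelp fell from 0.59 to 0.26 without animal 68, and by over 1.5 times without animal 61 as well. All members stood above 8 CPM, far over the floor that depth sets.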
